A study of Mus musculus with 16 samples.

Results

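The 10 genes described here encode enzymes of serine synthesis and of folate-dependent one-carbon metabolism: Phgdh, Psat1, Psph, Shmt1, Shmt2, Mthfd1, Mthfd1l, Mthfd2, Mthfd2l and Tyms. They were chosen by name, from the cytosolic and mitochondrial folate enzymes and the serine synthesis enzymes, with no threshold on their values, at a time when earlier results of these libraries were known. All 10 were found among the 25719 gene identifiers of the count files, and all 10 passed the filter on low counts. RNA of mouse tail tendon fascicles, the collagen bundles that run along the tail, was sequenced in 8 wild type libraries and 8 knockout libraries. The knockout mice carried floxed Vhl and a Cre recombinase under control of Scx (ScxCre;Vhlf/f). The wild type libraries are labelled with no allele or agent, and age, sex and strain are not given in the sources used here. Scx is a transcription factor of the tendon lineage, so cells of other lineages in the fascicles are not the target of this Cre. The RNA came from all cells of the tissue, so fewer cells of a type and less RNA per cell cannot be told apart in any value below.

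Serine is made from the glycolytic intermediate 3-phosphoglycerate by Phgdh, Psat1 and Psph in turn. Serine hydroxymethyltransferase then moves a carbon from serine to tetrahydrofolate and leaves glycine, in the cytosol by Shmt1 and in the mitochondrion mainly by Shmt2. In the mitochondrion Mthfd2 or Mthfd2l oxidises the folate-bound carbon, and Mthfd1l releases it as formate. In the cytosol Mthfd1 takes up formate and returns it to folate for purine synthesis, for methionine synthesis and for thymidylate synthesis by Tyms. Vhl is the substrate receptor of the ubiquitin ligase that marks the hypoxia-inducible factors for degradation when oxygen is present. Hypoxia-inducible factors bind DNA at the core ACGTG or GCGTG.

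Mthfd1l, Psat1 and Shmt2 were higher in the knockout, by 4.62-fold, 2.66-fold and 1.82-fold, and for each of them every knockout library lay above every wild type library. Mthfd2l was lower, at 0.809-fold of wild type. The other 6 genes did not pass the test, namely Phgdh, Psph, Shmt1, Mthfd2, Mthfd1 and Tyms. Thus 4 of 10 genes passed edgeR's quasi-likelihood test at a Benjamini-Hochberg adjusted p under 0.05, taken over 14803 tested genes. Among all tested genes 48.3% passed, 25.6% as higher and 22.7% as lower, so the share of 40.0% among the 10 genes was near the background. The 3 genes whose groups did not overlap stand beside 10.8% of all tested genes that did so in the higher direction and 8.61% in the lower. The median log2 fold change of the 10 genes was 0.21, and that of all tested genes was 0.02. Levels are given as CPM, read counts divided by a scaled library size. The scaling was by the trimmed mean of M values (TMM), which assumes that most genes do not change between libraries. Without the TMM scaling the median of all genes moved to 0.32, and 6 of the 10 genes then passed as higher and 0 as lower.

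**Figure D1:**
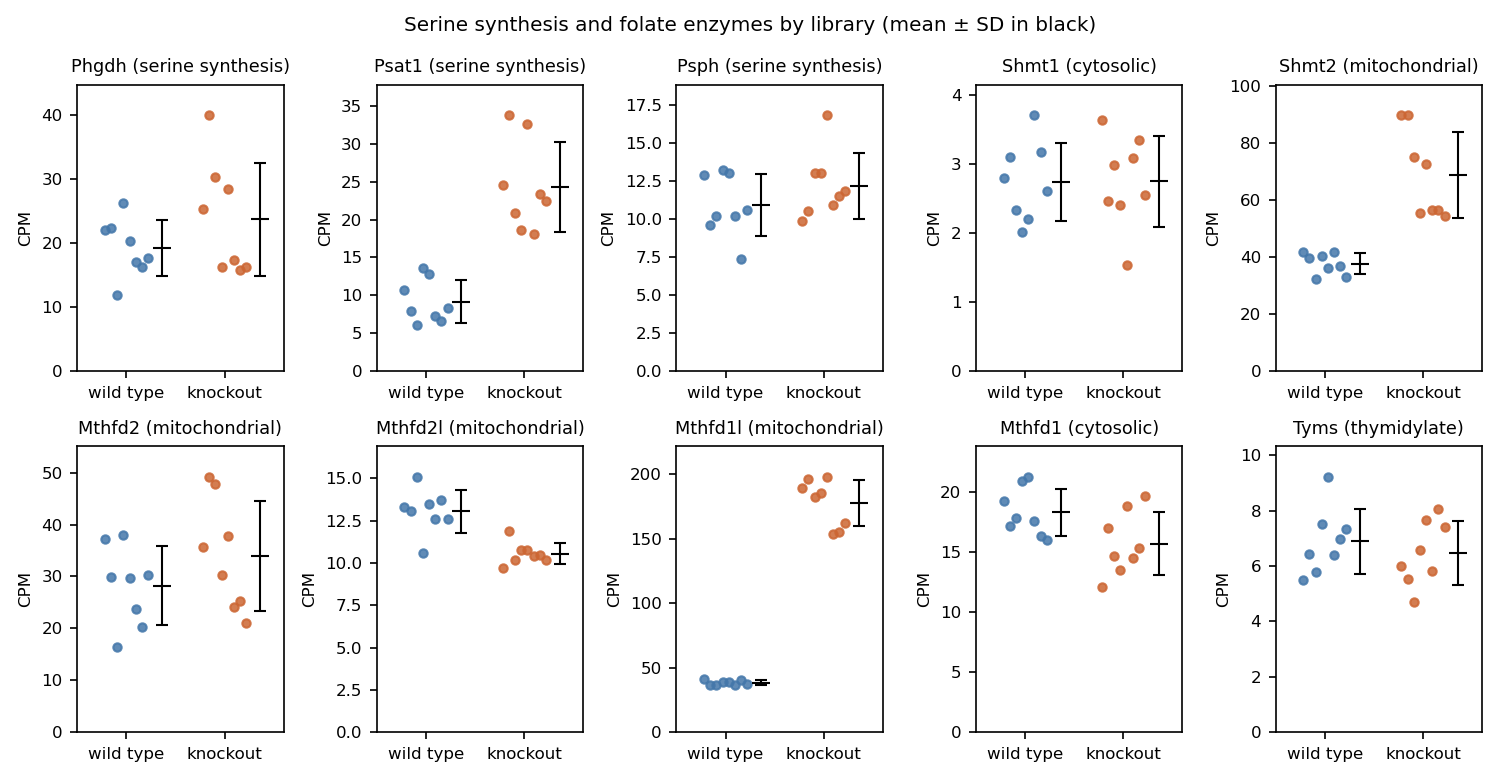
Read counts scaled to library size (CPM, vertical axis from 0) of the 10 genes in 8 wild type and 8 knockout libraries, 1 point per library, with the mean and SD in black. The groups are separate for Psat1, Shmt2 and Mthfd1l and overlap for the other genes.

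The stretches before the transcription start are shown for the genes that rose and for Mthfd2, the mitochondrial dehydrogenase that did not pass the test, to set a window with the core beside windows without it. All 10 genes matched a RefSeq promoter by symbol. Each window is the 250 bases upstream of a RefSeq start on GRCm38.p6, written 5′ to 3′ on the gene's strand. The bases just after the start were found in a GENCODE M21 transcript for 8 of the 10 genes, and for Mthfd1l and Mthfd1 they were not found in either orientation. Capitals mark ACGTG or GCGTG on either strand, so a core on the other strand reads CACGT or CACGC. The Mthfd1l window lies at chr10:3972825-3973074 on the plus strand. The Psat1 window, for 1 of 2 RefSeq starts, lies at chr19:15925060-15925309 on the minus strand. The Shmt2 window lies at chr10:127522445-127522694 and the Mthfd2 window at chr6:83317605-83317854, both on the minus strand.
Mthfd1l: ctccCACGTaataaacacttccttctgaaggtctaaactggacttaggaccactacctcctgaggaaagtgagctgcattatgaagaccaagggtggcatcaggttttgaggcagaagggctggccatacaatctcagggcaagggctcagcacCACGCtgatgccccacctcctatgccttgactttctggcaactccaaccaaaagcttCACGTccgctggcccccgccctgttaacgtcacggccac
Psat1: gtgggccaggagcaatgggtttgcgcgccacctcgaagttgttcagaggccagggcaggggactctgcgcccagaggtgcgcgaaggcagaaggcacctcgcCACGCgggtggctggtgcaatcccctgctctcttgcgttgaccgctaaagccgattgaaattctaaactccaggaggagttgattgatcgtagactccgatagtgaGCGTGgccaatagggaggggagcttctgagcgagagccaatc
Shmt2: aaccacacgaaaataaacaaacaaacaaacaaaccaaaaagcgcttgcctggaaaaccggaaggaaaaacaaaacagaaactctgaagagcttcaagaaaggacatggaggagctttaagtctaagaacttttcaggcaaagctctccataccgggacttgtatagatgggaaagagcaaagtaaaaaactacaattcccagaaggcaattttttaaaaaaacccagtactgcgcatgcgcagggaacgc
Mthfd2: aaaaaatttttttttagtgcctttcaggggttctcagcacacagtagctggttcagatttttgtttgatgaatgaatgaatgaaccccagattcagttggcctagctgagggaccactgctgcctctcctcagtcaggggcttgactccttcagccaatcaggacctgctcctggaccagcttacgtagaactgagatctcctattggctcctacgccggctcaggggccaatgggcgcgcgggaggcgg
The Mthfd1l window held ACGTG 2 times and GCGTG 1 time, with the first bases 246, 39 and 96 bases before the start. The Psat1 window held GCGTG 2 times, at 148 and 42 bases before the start. The windows of Shmt2 and Mthfd2 held neither letter run. The Mthfd2 window held CCAAT, the box bound by the factor NF-Y, 3 times. The windows of Phgdh and Psph and the Psat1 window shown held CCAAT 2 times each, and those of Mthfd1 and Shmt1 1 time each. Of the 10 genes, 8 had either core in a window, and 38.6% of 32851 RefSeq promoter windows of this length had one. Those 8 include Phgdh, Psph, Shmt1, Mthfd1 and Tyms, which did not pass the test, and Mthfd2l, which fell. The genes without a core were Shmt2, which rose, and Mthfd2, so a core did not separate the genes that rose from the others. ACGTG was in 16.6% of windows, GCGTG in 28.2% and CCAAT in 33.8%, and a window can hold more than one of them. TGATGNAA, the composite element bound by Atf4 with a C/EBP partner, was in 0 windows of the 10 genes and in 3.45% of all windows. These matches describe letters in a window, and no binding was measured.

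The state of the libraries comes first. Total counts ran from 10488355 to 18753254 per library. Vhl was 20.5 ± 3.69 CPM (SD, n = 8) in wild type and 9.35 ± 1.25 CPM (SD, n = 8) in the knockout. Its highest knockout library, at 10.9 CPM, lay below its lowest wild type library, at 14.1 CPM, and the log2 fold change was -1.13 (adjusted p = 9.64e-08, SE 0.113). Summed tenocyte markers were taken over 10 genes, with type I collagen among them. They ran from 138000 to 387000 CPM in wild type and from 83100 to 185000 CPM in the knockout. Of the 10 genes, 7 were called lower and 1 higher. Summed skeletal muscle markers (12 genes, 2 called higher) ran from 53.8 to 3820 CPM in wild type. Knockout libraries 6, 7 and 8 held 6520, 8160 and 7570 CPM of them, against 145 to 1110 CPM in the other 5 knockout libraries. The same 3 knockout libraries were highest in summed endothelial markers (324, 499 and 346 CPM, against 38.2 to 165 CPM in the other knockout libraries and 30.6 to 50.2 CPM in wild type; 5 of 7 tested genes higher). They were also highest in summed mural cell markers (1580, 1960 and 1630 CPM, against 273 to 638 and, in wild type, 209 to 388 CPM; 5 of 7 tested genes higher and 1 lower). Macrophage markers were 997 to 1400 CPM in wild type and 1170 to 1630 CPM in the knockout (4 of 8 higher), and erythroid markers 15.1 to 50.7 and 77.3 to 560 CPM (5 of 5 tested higher). Schwann cell markers were 409 to 473 and 283 to 530 CPM (1 of 5 tested higher), and keratinocyte markers 23.3 to 57.0 and 14.3 to 19.9 CPM (3 of 3 tested lower), with Krt1 at 0 in every library. Adipocyte markers were at most 1.73 CPM in wild type and 55.9 CPM in the knockout, and lymphocyte markers were at most 0.89 CPM in any library. The part that these other cells had in the results below was not tested, apart from the values given with 4 libraries left out or with a marker level as a covariate.

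In serine synthesis the middle enzyme moved and the first and last did not pass the test. Psat1, phosphoserine aminotransferase (ENSMUSG00000024640, chromosome 19), had a wild type range of 6.09 to 13.6 CPM with a median of 8.09. Its knockout range was 18.1 to 33.8 CPM with a median of 22.9, so the lowest knockout library, library 6, was above the highest wild type library, library 4. The mean rose from 9.14 ± 2.86 to 24.3 ± 5.91 CPM (SD, n = 8 each), a log2 fold change of 1.41 (adjusted p = 3.36e-06, SE 0.181). The call was lost with the level of 20 cell cycle genes as a covariate, a level that does not overlap between genotypes (0.39, the highest adjusted p of 31 alternatives at 0.865).

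Phgdh, the dehydrogenase that commits 3-phosphoglycerate to serine (ENSMUSG00000053398, chromosome 3), ran from 11.9 to 26.2 CPM in wild type with a median of 18.9. It ran from 15.8 to 40.0 CPM in the knockout with a median of 21.4. Knockout libraries 1, 2, 3 and 5 held 25.4, 40.0, 30.4 and 28.4 CPM, and libraries 4, 6, 7 and 8 held 16.3, 17.3, 15.8 and 16.3 CPM. Only libraries 2, 3 and 5 lay above the wild type range. The means of 19.2 ± 4.42 and 23.7 ± 8.86 CPM differed by less than this spread, and the log2 fold change of Phgdh was 0.30 (adjusted p = 0.242, SE 0.206, 95% interval from the SE -0.10 to 0.71). Leaving out knockout library 2 alone gave 0.15. Without the 4 libraries highest in muscle markers (wild type 5 and knockout 6, 7 and 8) it was 0.56 and passed at adjusted p = 0.0402, one of 31 alternatives whose adjusted p ran from 6.89e-04 to 0.889.

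Psph, the phosphatase that releases serine (ENSMUSG00000029446, chromosome 5), ran from 7.36 to 13.2 CPM in wild type (median 10.4) and from 9.87 to 16.8 CPM in the knockout (median 11.6). Only knockout library 5 lay above the wild type range. The log2 fold change was 0.16 (adjusted p = 0.291, SE 0.124, 95% interval -0.08 to 0.41), and the log2 fold change of Psph was 0.08 without knockout library 5. Its exons share 452 bases with Cct6a, a chaperonin subunit on the other strand, in the GENCODE M21 annotation, and Cct6a had a log2 fold change of 0.21 (adjusted p = 0.0294). Whether the counting used strand is not given in the sources used here, so reads of the shared bases cannot be assigned.

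In the serine to glycine step the mitochondrial enzyme rose and the cytosolic enzyme gave no detectable difference. Shmt2 (ENSMUSG00000025403, chromosome 10) ran from 32.1 to 41.8 CPM in wild type with a median of 38.1. It ran from 54.3 to 89.6 CPM in the knockout with a median of 64.5, and the groups did not overlap. The mean rose from 37.6 ± 3.74 to 68.6 ± 15.2 CPM (SD, n = 8 each), a log2 fold change of 0.87 (adjusted p = 3.40e-06, SE 0.114). Knockout libraries 4, 6, 7 and 8 were at 54.3 to 56.4 CPM, and the other knockout libraries were at 72.6 to 89.6 CPM. Without the 4 libraries highest in muscle markers the log2 fold change of Shmt2 was 1.01. With the cell cycle level as a covariate it was 0.63 and did not pass (adjusted p = 0.601, the highest of 31 alternatives). Shmt2 shares 32 exon bases with Ndufa4l2, a mitochondrial protein gene on the other strand that rose from 194 ± 35.5 to 503 ± 67.8 CPM (log2 fold change 1.38, adjusted p = 7.95e-09). The part of those shared bases in the Shmt2 counts was not tested.

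Shmt1 (ENSMUSG00000020534, chromosome 11) had 2.75 ± 0.567 CPM in wild type and 2.75 ± 0.66 CPM in the knockout (SD, n = 8 each). The ranges of 2.02 to 3.71 CPM and 1.53 to 3.64 CPM lay over each other, with medians of 2.71 and 2.77. The log2 fold change was 0.00 (adjusted p = 0.988, SE 0.173), and the 95% interval of -0.34 to 0.34 leaves room for a difference of that size. Counts were 23 to 69 per library, so the counting error relative to the level is larger than for Shmt2. Of the Shmt1 exons, 184 bases also lie in exons of Smcr8, on which the same limit holds.

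The mitochondrial folate enzymes moved in different directions. Mthfd1l, the formyltetrahydrofolate synthetase that releases formate (ENSMUSG00000040675, chromosome 10), held 36.4 to 41.3 CPM in wild type with a median of 38.4. It held 154 to 198 CPM in the knockout with a median of 184. The wild type libraries lay within 5 CPM of each other, and the lowest knockout library was over 3 times the highest of them. The mean rose from 38.5 ± 1.76 to 178 ± 18.1 CPM (SD, n = 8 each), a log2 fold change of 2.21 (adjusted p = 3.34e-15, SE 0.0656). Of all tested genes, 482, or 3.26%, passed as higher in the knockout with a fold change of at least this size. The counts behind these values were 368 to 4004 reads per library. Knockout libraries 6, 7 and 8 held 154, 155 and 162 CPM, and the other 5 held 182 to 198 CPM. Without the 4 libraries highest in muscle markers the log2 fold change was 2.31, and Mthfd1l passed in 31 of 31 alternatives.

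Mthfd2 (ENSMUSG00000005667, chromosome 6), which oxidises methylenetetrahydrofolate and is known as high in dividing and embryonic cells, ran from 16.5 to 37.9 CPM in wild type with a median of 29.8. It ran from 21.0 to 49.2 CPM in the knockout with a median of 33.0. Knockout libraries 2 and 3, at 49.2 and 47.8 CPM, were above the wild type range, and knockout libraries 6, 7 and 8, at 24.2, 25.3 and 21.0 CPM, were the lowest of their group. The log2 fold change of Mthfd2 was 0.26 (adjusted p = 0.291, SE 0.2, 95% interval -0.13 to 0.66). Without the 4 libraries highest in muscle markers it was 0.52 and passed at adjusted p = 0.042, within a range of 0.00452 to 0.848 over the alternatives.

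Mthfd2l (ENSMUSG00000029376, chromosome 5), the other mitochondrial dehydrogenase, was the gene that fell. It ran from 10.6 to 15.1 CPM in wild type (median 13.2) and from 9.71 to 11.9 CPM in the knockout (median 10.5). The groups overlapped through wild type library 4, at 10.6 CPM, and 8 of 8 knockout libraries lay below the wild type median. The mean fell from 13.1 ± 1.27 to 10.6 ± 0.652 CPM (SD, n = 8 each), a log2 fold change of -0.31 (adjusted p = 0.00197, SE 0.0738). The call rested on the scaling: with total counts the log2 fold change was -0.01 (adjusted p = 0.949, the highest of 31 alternatives). The call was also lost with the endothelial level (-0.24) or the cell cycle level (-0.14) as a covariate, in the log2 fold change of Mthfd2l.

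In the cytosol, Mthfd1, the trifunctional enzyme that takes up formate (ENSMUSG00000021048, chromosome 12), ran from 16 to 21.3 CPM in wild type (median 17.8) and from 12.1 to 19.7 CPM in the knockout (median 15.1). Most knockout libraries lay below the wild type range, and 3 lay within it. The log2 fold change of Mthfd1 was -0.22 (adjusted p = 0.0686, SE 0.0975), with a 95% interval of -0.41 to -0.03 that is not adjusted for the number of genes. It passed narrowly in DESeq2 (-0.24, adjusted p = 0.0481) in limma-voom (-0.23, adjusted p = 0.0484) and with the level of Y-linked genes as a covariate (-0.22, adjusted p = 0.0383), within 0.0249 to 0.677 over 31 alternatives, and was 0.08 with total counts. Tyms, thymidylate synthase (ENSMUSG00000025747, chromosome 5), ran from 5.49 to 9.22 CPM in wild type (median 6.7) and from 4.7 to 8.05 CPM in the knockout (median 6.29). Its groups overlapped nearly in full, with a log2 fold change of -0.09 (adjusted p = 0.593, SE 0.127, 95% interval -0.34 to 0.16) and counts of 49 to 166 per library.

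Divided by annotated exon length, so that genes can be compared, Shmt2 was the most abundant of the 10 in wild type, at 12.1 ± 1.2 CPM per kilobase (SD, n = 8). Mthfd1l (8.68 ± 0.396), Mthfd2 (8.08 ± 2.17) and Phgdh (7.73 ± 1.78) came next, and neighbours among these 3 overlapped. Mthfd1 had 4.13 ± 0.445 CPM per kilobase, Psph 2.51 ± 0.467, Psat1 2.15 ± 0.672 and Mthfd2l 1.97 ± 0.191. Tyms, at 1.13 ± 0.193, and Shmt1, at 0.708 ± 0.146 CPM per kilobase, were the lowest. In the wild type order only Shmt2 over Mthfd1l, Mthfd1 over Psph and Mthfd2l over Tyms were neighbours whose ranges did not overlap. In the knockout Mthfd1l led, at 40.1 ± 4.08 CPM per kilobase, over Shmt2, at 22.1 ± 4.89, with ranges that did not overlap. Mthfd2 (9.73 ± 3.06) and Phgdh (9.55 ± 3.57) followed with overlapping ranges, and Psat1 came after them at 5.71 ± 1.39. Mthfd1 (3.54 ± 0.588), Psph (2.81 ± 0.498), Mthfd2l (1.59 ± 0.0981), Tyms (1.06 ± 0.191) and Shmt1 (0.709 ± 0.17 CPM per kilobase) closed the order. By the longest coding transcript instead of all exons, the order differed, with Mthfd2 before Mthfd1l in wild type. Psph and Mthfd2l then came before Mthfd1 in both genotypes (wild type 6.28, 6.05 and 5.66 CPM per kilobase). The order of Mthfd1 and Psph thus depends on the length used.

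Ratios between enzymes of the same library compare paralogs or neighbouring steps, and the scaling of a library cancels in them apart from the prior count. The ratio of Mthfd1l to Mthfd1, the formate-releasing and formate-using enzymes, rose by 2.43 on the log2 scale, which is 5.38-fold. It ran from 0.87 to 1.29 in wild type and from 3.03 to 3.94 in the knockout (exact two-sided permutation p = 1.55e-04, adjusted over 6 ratios 4.66e-04). That p is the smallest that 12870 assignments can give. The ratio of Psat1 to Phgdh went from -1.08 ± 0.253 to 0.08 ± 0.359 (SD, n = 8 each), also with no overlap and the same exact p and adjusted p. The ratio of Shmt2 to Shmt1 went from 3.72 ± 0.264 to 4.57 ± 0.48, with 6 of 8 knockout libraries above the wild type range (exact permutation p = 6.22e-04, adjusted 0.00124). These 3 ratios repeat the fold changes of Mthfd1l, Psat1 and Shmt2 set against a gene that did not pass.

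The other ratios did not pass after adjustment. Mthfd2 against Mthfd2l differed by 0.55 (exact permutation p = 0.0385, adjusted 0.0578), and Mthfd2 against Mthfd1 by 0.48 (exact permutation p = 0.0569, adjusted 0.0683). Psph against Phgdh differed by -0.09 (exact permutation p = 0.694, adjusted 0.694).

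**Figure D2:**
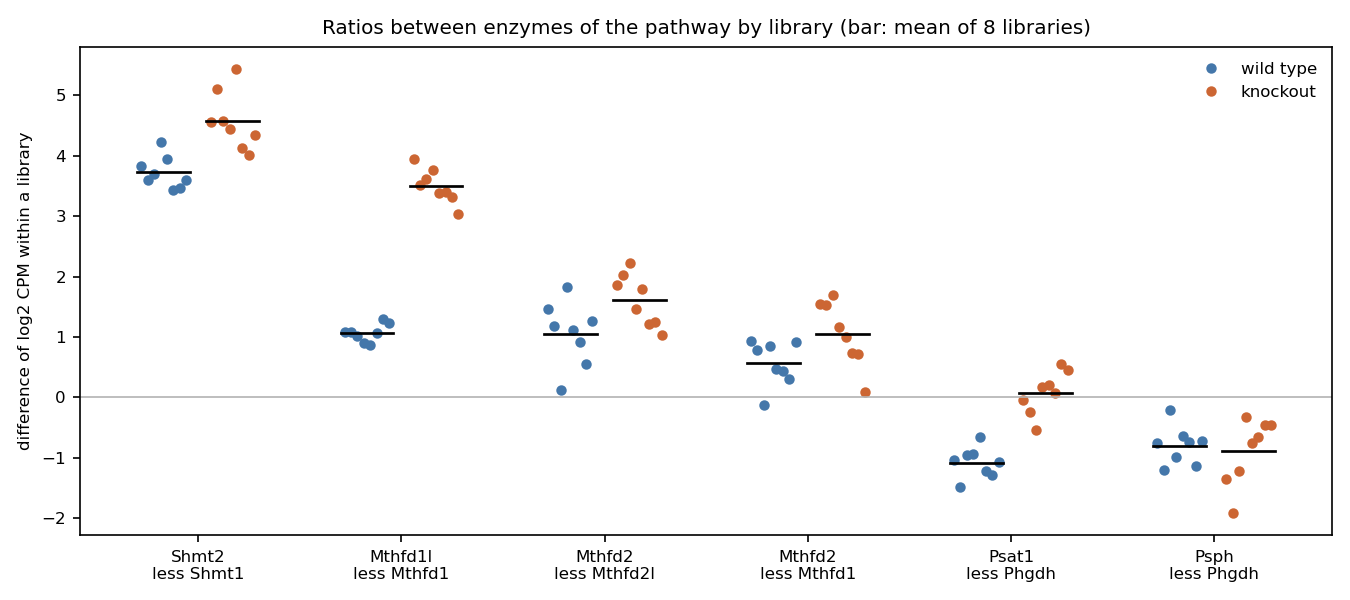
Difference of log2 CPM between 2 genes within a library (vertical axis), for 6 pairs, 8 wild type and 8 knockout libraries, with a bar at each mean. The groups are separate for Mthfd1l less Mthfd1 and for Psat1 less Phgdh, and overlap for the other pairs.

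Knockout libraries 6, 7 and 8 were the 3 lowest of their genotype for Mthfd1l and Mthfd2 and highest in muscle markers. Since the libraries of each genotype fall into 2 sets by muscle level, no correlation with that level is given for either genotype. The part of muscle tissue in these values was not tested. Tyms followed the cell cycle list (20 genes) within wild type with r = 0.82 and rho = 0.86 over 8 libraries (exact permutation p = 0.00982, adjusted over 40 relations 0.196), and r was 0.81 without the 2 libraries farthest from the median. Within the knockout r was 0.05 over 8 libraries (exact permutation adjusted p = 0.986). Without the 2 knockout libraries farthest from their median, r was 0.68 (n = 6, exact permutation p = 0.139). None of the 20 relations of a gene with the cell cycle level within a genotype passed after adjustment over the 40 computed.

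**Figure D3:**
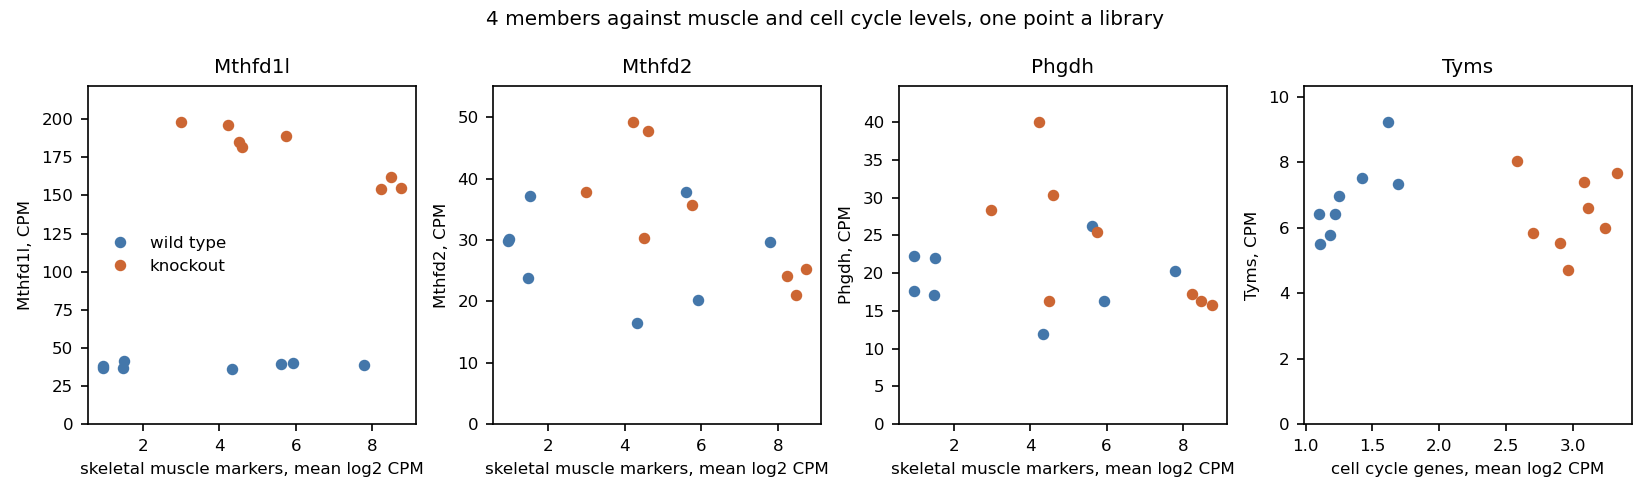
CPM of Mthfd1l, Mthfd2 and Phgdh (vertical axes) against the mean log2 CPM of 12 skeletal muscle markers, and of Tyms against 20 cell cycle genes, 1 point per library. Knockout libraries 6, 7 and 8 lie at the right of the muscle panels with 154 to 162 CPM of Mthfd1l, and the genotypes do not overlap in cell cycle level.

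With each genotype's mean removed, Mthfd2 and Phgdh varied together over the 16 libraries (Pearson r = 0.92), as did Shmt2 and Phgdh (0.84), Phgdh and Psat1 (0.72) and Mthfd2 and Shmt2 (0.72). The libraries share their depth, composition and cell content, and these values are descriptions. Among 13407 genes outside the list, Asns, the asparagine synthetase, was most like Phgdh (r = 0.97) and most like Shmt2 (r = 0.87). Asns rose from 22.6 ± 5.08 to 41.0 ± 14.0 CPM (adjusted p = 0.00124, log2 fold change 0.85, SE 0.191). Akap9 and Tbl2 followed for Phgdh (0.92 each), and Ccdc24 (0.87) and Prr14l (0.85) for Shmt2. The genes most like Mthfd2 were Pofut2 (0.96), Ccdc186 (0.93) and Bfsp1 (0.93), and those most like Tyms were Xkr4 (0.85), Ulbp1 (0.81) and Dennd4a (0.81).

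The lists around the 10 genes are read against all tested genes, of which 48.3% passed, 25.6% as higher and 22.7% as lower. Of 12 tested folate handling genes 3 were higher and 2 lower (41.7% called, median -0.02), a share near that background. The reduced folate carrier Slc19a1 rose from 11.8 ± 2.08 to 20.1 ± 2.61 CPM (log2 fold change 0.76, adjusted p = 8.30e-06). The proton-coupled folate transporter Slc46a1 fell from 9.80 ± 1.84 to 4.96 ± 0.772 CPM (-0.99, adjusted p = 3.37e-06), and the folate receptor Folr2, known from macrophages, fell from 27.0 ± 3.36 to 14.8 ± 2.98 CPM (-0.87, adjusted p = 4.29e-06). None of these 3, of 12 tested, overlapped between groups, and 19.4% of all tested genes did not overlap in either direction. Aldh1l2, the mitochondrial enzyme that oxidises formyl-folate to carbon dioxide, rose from 102 ± 36.8 to 204 ± 62.1 CPM (0.99, adjusted p = 0.00183), and its exons overlap those of D10Wsu102e, so its counts are uncertain.

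Of 10 tested serine and glycine transport genes 3 were higher and 3 lower (60.0% called, median -0.05), which is 6 genes against a background of 48.3%. Slc1a4, a carrier of serine and alanine, rose from 44.7 ± 9.5 to 118 ± 21.8 CPM (log2 fold change 1.40, adjusted p = 9.65e-08), and the glycine transporter Slc6a9 rose from 30.8 to 42.5 CPM (0.47, adjusted p = 0.00375). Slc6a9 shares 1429 exon bases with Ccdc24 on the other strand. Sfxn1, the carrier that brings serine into the mitochondrion, fell from 26.6 ± 1.21 to 19.8 ± 2.5 CPM (-0.42, adjusted p = 7.23e-05), while Shmt2 and Mthfd1l rose. Its relative Sfxn2 fell from 19.5 to 11.6 CPM (-0.75, adjusted p = 1.63e-07).

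Of 5 tested genes of glycine cleavage and related glycine use 1 was higher and 2 lower (60.0% called, median -0.12). Sardh, which demethylates sarcosine to glycine, rose from 8.52 to 14.4 CPM (log2 fold change 0.76), and Gcsh, the carrier protein of the glycine cleavage system, fell from 19.0 to 12.7 CPM (-0.58). Gcat, of threonine breakdown, fell from 9.65 to 3.91 CPM (-1.31). Gcat has 2 identifiers that share exons, so its value is uncertain. In the methionine cycle 1 of 9 tested genes was higher and 3 were lower (44.4% called, median 0.02). Mtrr, the reductase of methionine synthase, rose from 10.5 to 15.4 CPM (0.56), and Ahcyl2 (-0.40), Mtap (-0.35) and Mat2b (-0.16, adjusted p = 0.0372) fell. The Mat2b call was lost in 14 of 31 alternatives, and its direction turned in 2 more. With total counts 6 of these 9 were higher and 0 lower, and Mat2b was then at 0.14. Mat1a and Bhmt2, enzymes of liver, were at 0 in every library.

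Of 8 purine synthesis genes, users of one-carbon units, 0 were higher and 4 lower (50.0% called, median -0.21). The share called in either direction was near the 48.3% of all tested genes. By direction every call was lower, whereas 25.6% of all tested genes were called higher and 22.7% lower. Paics fell from 136 ± 30.9 to 81.5 ± 13.8 CPM (log2 fold change -0.73, adjusted p = 1.75e-04), Gart from 39.9 to 26.2 CPM (-0.61), Prps2 from 22.8 to 16 CPM (-0.51) and Atic, the enzyme that uses the second formyl group, from 39.1 to 34.6 CPM (-0.18). Paics shares 272 exon bases with Ppat. Atic was at 0.13 with total counts, when 1 gene of the list was higher and 2 were lower. Of 9 tested genes of thymidylate and deoxynucleotide supply 4 were higher and 1 lower (55.6% called, median 0.22). The share called in either direction was also near 48.3%, and most of the calls were higher. The kinases Dck (4.78 to 15.2 CPM, 1.66) and Tk1 (8.72 to 14.8 CPM, 0.76) and the ribonucleotide reductase subunit Rrm1 (22.8 to 32.4 CPM, 0.51) rose. Mitochondrial Tk2 (27.6 to 21.4 CPM, -0.37) fell. With total counts Tk2 was at -0.06, and 5 genes of this list were then higher and 0 lower. Of 20 cell cycle genes 20 were higher (median 2.06), with Bub1 (0.375 to 2.48 CPM), Ccnb1 (0.631 to 4.0 CPM), Birc5 (0.521 to 3.08 CPM) and Top2a (4.01 to 19.9 CPM) the leading ones. The lowest wild type values of Bub1 (0.224 CPM), Ccnb1 (0.112 CPM) and Birc5 (0.169 CPM) rest on few reads. In wild type libraries 3 counts make 0.209 to 0.336 CPM, so the sizes of these changes are uncertain. Tyms, which is often counted with such genes, did not pass, as given above.

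Among the glycolysis genes before and after 3-phosphoglycerate, 5 of 5 rose (median 2.43). Gapdh went from 308 to 1670 CPM, Pgk1, which makes 3-phosphoglycerate, from 79.8 to 499 CPM, Pgam1, which uses it, from 20.5 to 114 CPM, and Pkm from 472 to 1690 CPM. Atf4 is a transcription factor that induces Phgdh, Psat1, Shmt2 and Mthfd2 when amino acids are short. Of 19 tested genes in the list of Atf4 and its targets outside the 10 genes, 12 were higher and 1 lower (68.4% called, median 0.60), beside 48.3% of all tested genes called, 25.6% as higher and 22.7% as lower. Stc2 rose from 2.53 to 100 CPM (5.31), Trib3 from 3.11 to 34.4 CPM (3.45), Vldlr from 45.6 to 484 CPM (3.41) and Gpt2 from 8.74 to 27.0 CPM (1.62). Atf4 itself rose from 118 to 164 CPM (0.48, adjusted p = 4.14e-04). The lower gene was the cystine carrier Slc7a11, from 119 ± 38.5 to 59.7 ± 30.8 CPM (-0.99, adjusted p = 0.0145). Atf4 and Slc7a11 are named here after their values were seen.

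**Figure D4:**
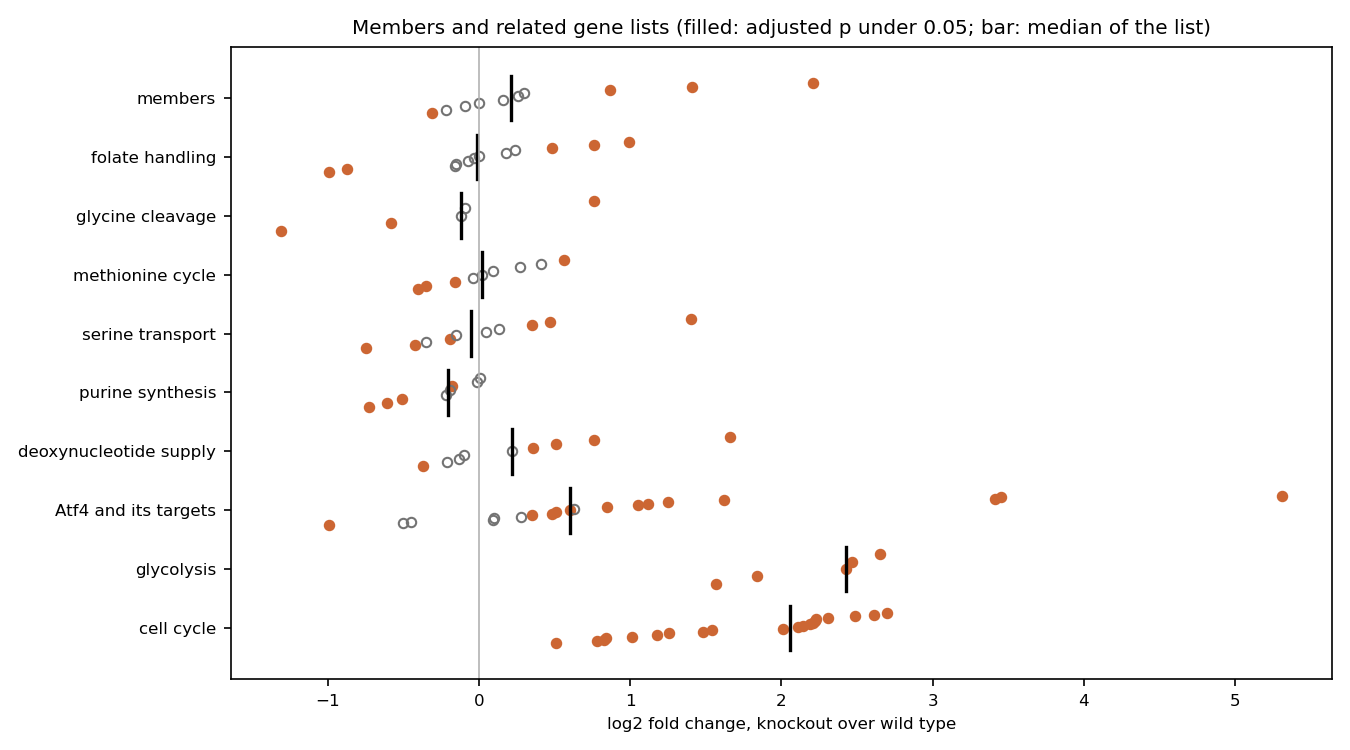
Log2 fold change, knockout over wild type (horizontal axis), of the 10 genes and of the tested genes of 9 related lists, 1 point per gene, filled where the adjusted p was under 0.05, with a bar at each list's median. The medians of glycolysis (2.43) and cell cycle (2.06) lie far to the right of that of the 10 genes (0.21).

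**Figure D5:**
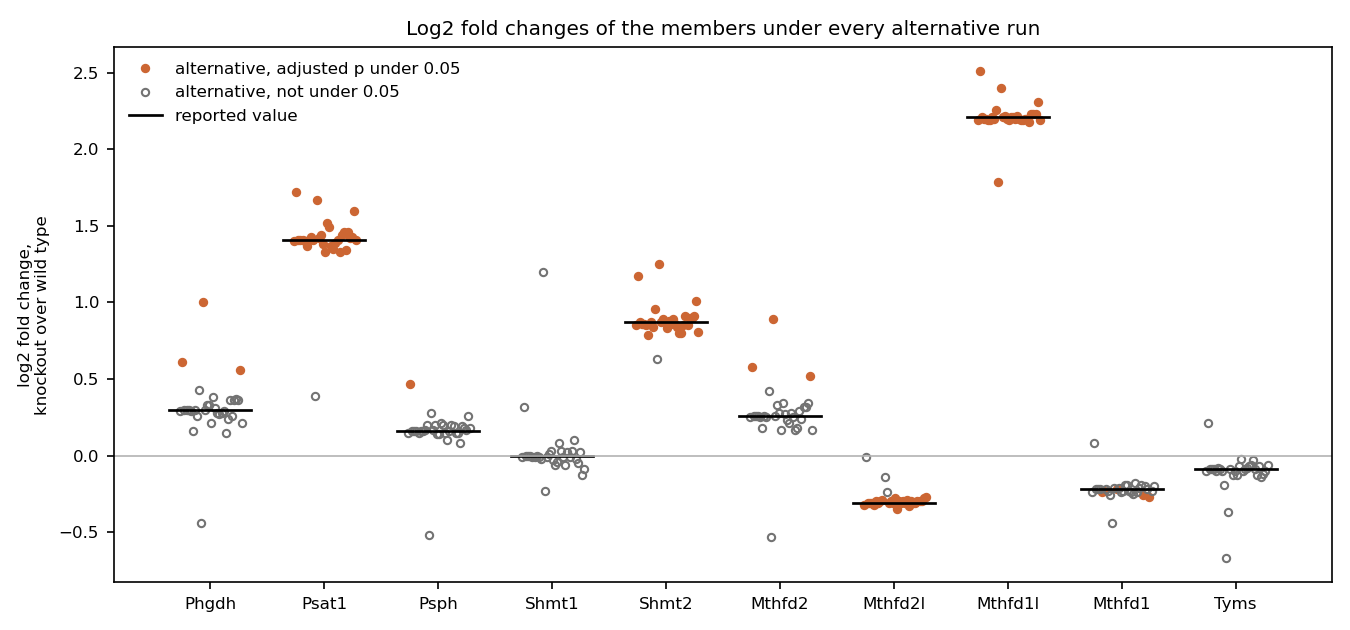
Log2 fold change of the 10 genes, knockout over wild type (vertical axis), as reported (bar) and under 31 alternatives (points, filled where the adjusted p was under 0.05). Mthfd1l stays between 1.79 and 2.51 and is filled throughout, and the open points of Psat1 and Shmt2 are those with the cell cycle level as a covariate.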

How the data were processed

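RNA-seq of tail tendon fascicles was deposited as 1 table of read counts per library, with whole-number counts per Ensembl gene as the authors made them, per the file headers and values. The submitters' processing notes list kallisto, featureCounts and GRCm39 with no role or version. The annotation and strand setting are not given in the sources used here. The labels do not say that libraries came from separate animals, so p-values measure only the spread between these libraries, which may be technical. The members and lists were chosen with earlier results of these data known.

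Symbols were matched through the reference tables (25614 of 25719 identifiers, 105 without one). CPM used TMM factors, and a library's limit for a count of 0 was 3 counts, or 0.145 to 0.336 CPM. Genotypes were compared with edgeR 4.0.16 (R 4.3.3, filterByExpr, robust quasi-likelihood F test, 14803 genes, Benjamini-Hochberg adjustment, threshold 0.05). Log2 CPM used a prior count of 2. Intervals are 95% from the fitted SE. DESeq2 1.42.0, limma 3.58.1 voom, other scalings and filters, marker levels as covariates, a replicate block and leaving out each library were alternatives. All 10 members were named, with up to 4 called genes of largest change per list and 3 most alike genes for each of 4 members. Of symbols on more than one identifier, the one with more counts was used. Exon lengths and overlaps came from GENCODE M21 on GRCm38, which is not the files' build, so chromosomes are given without gene coordinates. Ratios were tested by exact permutation. On simulated data (14748 genes, 200 changed) edgeR called 90.8% of genes changed by 1 log2 unit and 95.6% of those changed by 2, and 6.03% of calls were unchanged genes. Those data changed 200 genes, against 7151 called between the genotypes, so they do not test TMM scaling where many genes change.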

Additional observations from a re-analysis of the deposited data

Results flagged for a closer look

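The Psph level of knockout library 5 was 16.8 CPM. Its gap to the next knockout library is 0.544 of the range of the 8 knockout libraries, above Dixon's critical value at the 95% level. It was 1 of 32 such checks, and chance gives about 1 in 20.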

How the results depend on the processing

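Mthfd1l kept its direction and call in all 31 alternatives. Psat1 and Shmt2 kept both except with the cell cycle level as a covariate (0.39 and 0.63). That level correlates with genotype at 0.96, and the fit called 406 genes, 5 of the genes in the pathway lists and 1 of the 10 members (Mthfd1l), in place of 7151, 65 and 4. It turned Sfxn1 to 0.02 and, in the list the covariate was made from, Bub1 to -0.50, Ccnb1 to -0.01, Birc5 to -0.47 and Top2a to -0.47. With the endothelial level as a covariate 4715 genes and 5 members were called, Mthfd2 (0.89) and Phgdh (1.00) among them, Mthfd2l lost its call (-0.24) and Mat2b was at 0.03. With total counts 9685 genes were called, 85.4% of them higher against 53.0% with TMM, Mat2b was at 0.14 and Atic at 0.13, and Mthfd2 (0.58), Phgdh (0.61) and Psph (0.47) passed. With the muscle level removed within genotype, the ratios of Mthfd2 to Mthfd2l (0.74) and to Mthfd1 (0.73) passed. Leaving out 1 library gave 0.42 to 0.66 and 0.38 to 0.62 for these ratios, 4 to 5 members and 6790 to 7151 genes called, and 0.15 to 0.38 for Phgdh, 0.17 to 0.34 for Mthfd2, 0.08 to 0.21 for Psph and -0.14 to -0.02 for Tyms. The first ratio passed without wild type 1 or 4 or knockout 6 or 8, the second without knockout 8, and Mthfd1 without knockout 5 (-0.26) or 8 (-0.27). Leaving out the 4 libraries highest in muscle markers, chosen after seeing the data, gave 6 called members. The planned fit with the skeletal muscle level as a covariate gave 4, and Mthfd2 (0.42) and Phgdh (0.43) did not pass in it. The cause of these changes was not tested. Same-numbered libraries of the 2 genotypes did not vary together (correlations -0.397 to 0.394, 3 of 8 over 0.1, 1 of 8 wild type libraries most like its own number). With the replicate block 7010 genes, 66 pathway genes and 4 members were called, and the paired ratios kept their calls. Depth limits Shmt1 and Tyms, with as few as 23 and 49 counts.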
